A study of Mus musculus with 8 samples.

Results

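Sites changed alike in both metastasis groups were the subject here: positions whose methylation level differed from that of primary tumors in the same direction, and by a like amount, in 2 kinds of lung metastasis. A site was a member when all 6 metastases lay on 1 side of both tumors, when each metastasis group mean differed from the tumor mean by at least 8 percentage points in that direction, and when the 2 metastasis means were less than 10 points apart. Of 136069 deposited sites, 1726 met this rule. Of these, 1548 were higher in metastases and 178 were lower, which is 1.14% and 0.131% of all sites. The rule used the measured values of all 8 samples, so the differences from the tumors given below are descriptions of the members and were not tested.

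Bisulfite sequencing was used to measure methylation in the 4T1 model, a mouse mammary carcinoma line of the BALB/c strain, known for seeding the lung. The groups were 3 lung metastases labelled MFP, 3 lung metastases labelled TVI and 2 primary mammary tumors labelled MFP, all from 4T1 cells in BALB/c hosts. No tumor labelled TVI was among the samples, so both metastasis groups were set against the same 2 tumors, and their differences from the tumors share those samples. The age of the mice is not given in the sources used here, and no label ties samples to separate animals, so the spread between samples may be technical. The values are fractions without read counts, and the depth behind each value is therefore unknown. Each sample was a bulk preparation, in which a change of level within tumor cells and a change in the share of other cells cannot be told apart.

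In mammalian DNA, methyl groups are placed mainly on the cytosine of CpG dinucleotides, and maintenance methyltransferases copy the pattern to the new strand when a cell divides. Promoters rich in CpG are usually free of methylation, whereas most CpGs within genes and between them are methylated in most cells. A level between these extremes in a bulk sample means that some copies carry the mark and others do not. Tumor cell populations keep and change such patterns as they grow and spread, which is why methylation is compared between primary tumors and metastases.

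The gene starts around which members lay were found by the spacing of CpGs, because the deposited positions did not have the coordinates of the mouse build for which a gene table was at hand. For each start RefSeq gives a window of 300 bases (GRCm38.p6, from 250 bases before to 50 bases after the start). A start was placed where at least 4 measured sites fell on the CpGs of its window, with no site off a CpG. The offsets tried were those that windows with at least 10 matched sites gave anywhere on the same chromosome, and the bases beside them. Nearby windows were not required to share the offset. This placed 302 genes, and 14 of them had a member within such a window. Shown here, from 5′ to 3′ on the strand of the gene, are the windows of Limk2 and Smarcd2, which held the most members, of Ak1, whose member in the window had the largest value for the smaller of its 2 differences, and of Nfatc2, the gene with the most members in all. Capitals mark the CpGs that were members.
Limk2 (minus strand): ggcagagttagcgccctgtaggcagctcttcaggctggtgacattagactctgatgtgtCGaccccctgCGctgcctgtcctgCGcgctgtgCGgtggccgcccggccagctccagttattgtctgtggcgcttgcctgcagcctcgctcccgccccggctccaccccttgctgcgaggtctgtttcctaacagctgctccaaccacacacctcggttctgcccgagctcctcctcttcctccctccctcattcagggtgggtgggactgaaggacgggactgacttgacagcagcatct
Smarcd2 (minus strand): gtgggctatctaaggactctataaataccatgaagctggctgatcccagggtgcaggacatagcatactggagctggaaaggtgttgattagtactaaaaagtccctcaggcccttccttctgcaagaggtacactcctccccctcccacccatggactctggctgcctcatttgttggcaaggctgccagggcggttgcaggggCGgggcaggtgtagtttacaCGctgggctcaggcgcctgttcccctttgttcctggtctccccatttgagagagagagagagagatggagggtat
Ak1 (plus strand): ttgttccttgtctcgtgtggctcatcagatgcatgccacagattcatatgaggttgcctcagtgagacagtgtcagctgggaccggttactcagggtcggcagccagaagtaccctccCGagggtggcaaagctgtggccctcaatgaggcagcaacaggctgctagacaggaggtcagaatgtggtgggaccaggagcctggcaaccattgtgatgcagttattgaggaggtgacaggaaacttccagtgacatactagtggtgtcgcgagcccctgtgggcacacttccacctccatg
Nfatc2 (minus strand): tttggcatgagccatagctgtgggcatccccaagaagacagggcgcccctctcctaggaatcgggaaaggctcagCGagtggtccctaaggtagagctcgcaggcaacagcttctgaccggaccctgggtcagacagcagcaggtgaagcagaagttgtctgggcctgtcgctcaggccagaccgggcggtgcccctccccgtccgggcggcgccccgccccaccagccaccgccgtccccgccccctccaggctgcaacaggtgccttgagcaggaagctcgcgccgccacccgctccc
The Limk2 window held 16 CpGs, of which 8 were measured and 4 were members. All 8 measured CpGs lay at -238 to -146 bases from the start, so the place of the members follows where sites were measured. The measured non-members at -164, -150 and -146 bases were also lower in both metastasis means. The one at -238 bases was lower in the MFP mean only.

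By the rule, methylation at the higher members was raised in every metastasis. Their median level was 79.7%, 78.6% and 79.2% in the MFP metastases, 82.4%, 82.8% and 82.8% in the TVI metastases, and 66.3% and 65.2% in the primary tumors. The median difference from the tumors was 11.5 points for MFP and 14.4 points for TVI metastases, against medians over all sites of 0.39 and 0.68 points. At the lower members, the mean level was 46.0%, 46.4% and 47.3% in the MFP metastases, 44.6%, 42.3% and 43.3% in the TVI metastases, and 58.5% and 57.8% in the tumors. Their median differences were -10.9 points for MFP and -14.1 points for TVI metastases. After quantile normalization of the samples, which gives each the same distribution of levels, the medians over the same members were 9.43 points for MFP and 9.84 points for TVI metastases at higher members, and -12.4 and -20.2 points at lower members. The direction of these gaps is fixed by the rule, and their size as deposited is bounded below by it. The likeness of the 2 groups as deposited follows from the rule too, which left out sites with metastasis means 10 points or more apart.

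The rule held the metastasis means within 10 points of each other, and it used both means, so their gap at the members is a description. The TVI mean lay farther from the tumors than the MFP mean at 1131 of the 1548 higher members (73.1%) and at 129 of the 178 lower members (72.5%), against 60.9% of all sites. Without the limit on the gap, 2798 sites met the rule, and the TVI mean lay farther at 2321 of them (83.0%), so the limit lowers this share. After quantile normalization it lay farther at 804 of the higher members (51.9%) and at 166 of the lower members (93.3%), so this share depends on the scaling, and the sign of TVI minus MFP changed at 365 of the members. The means lay within 3 points of each other at 731 higher and 68 lower members. Differences of at least 15 points in both groups were reached at 293 higher and 18 lower members, and of at least 30 points at 5 higher and 1 lower member. In 742 higher members the level reached 80% or more in both metastasis groups. Just inside the 8-point minimum lay positions 21440251 on chromosome 9, 26245614 on chromosome 2 and 145629808 on chromosome 5, with smaller differences of 8.00001, 8.0017 and 8.00355 points. Just outside it lay 106128454 on chromosome 11, 20939066 on chromosome 9 and 14999572 on chromosome 8, with 7.99965, 7.99653 and 7.99606 points, so the boundary cuts a continuous range of values.

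**Figure D1:**
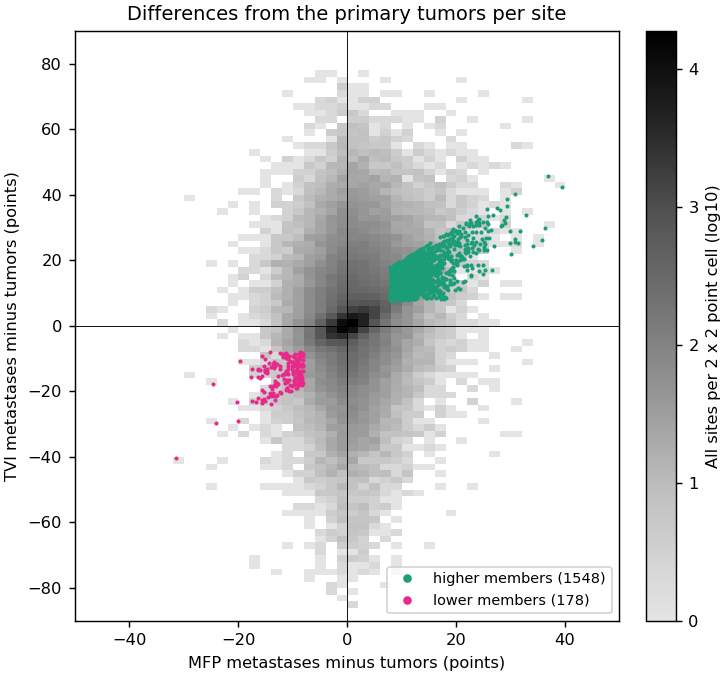
Difference of MFP metastases from tumors (horizontal axis, percentage points) against that of TVI metastases (vertical axis, percentage points). Gray cells count all 136069 sites on a log10 scale, and colored points are the 1548 higher and 178 lower members, which form a band on each side of 0 because the rule limits the gap between the 2 differences to less than 10 points.

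The share of members that were higher, 89.7%, depended on how the samples were scaled. After quantile normalization, 1202 sites met the rule, of which 813 (67.6%) were higher and 389 were lower, and 799 of the 1726 members remained. Under that scaling none of the members turned to the other direction. Applied without tumor 1 the rule, which then has fewer samples to satisfy, gave 3755 sites, and without tumor 2 it gave 3142, of which 87.7% and 82.0% were higher.

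Most members started from an intermediate level. Their median level in the primary tumors was 65.3%, against 90.4% over all sites, and 74.1% of members had a tumor level from 20% to 80%, against 16.3% of all sites. The share of sites that were members was highest, at 7.51%, where the tumor level was from 60% to 70%, and was 0.276% below 10% and 0.0403% at 90% or more. The rule itself limits this: a site at 95% cannot gain 8 points, and a site at 5% cannot lose them. Lower members were spread more evenly over the range, with 24.2% at a tumor level of 80% or more, against 16.1% of the higher members. The tumors differed from each other by a median of 4.29 points at members, against 2.27 points over all sites, and the median SD within a group was 3.24 points in MFP metastases, 3.06 in TVI metastases and 3.04 in tumors at members, against 1.93, 1.78 and 1.61 over all sites. The part of this wider spread in the differences was not tested.

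**Figure D2:**
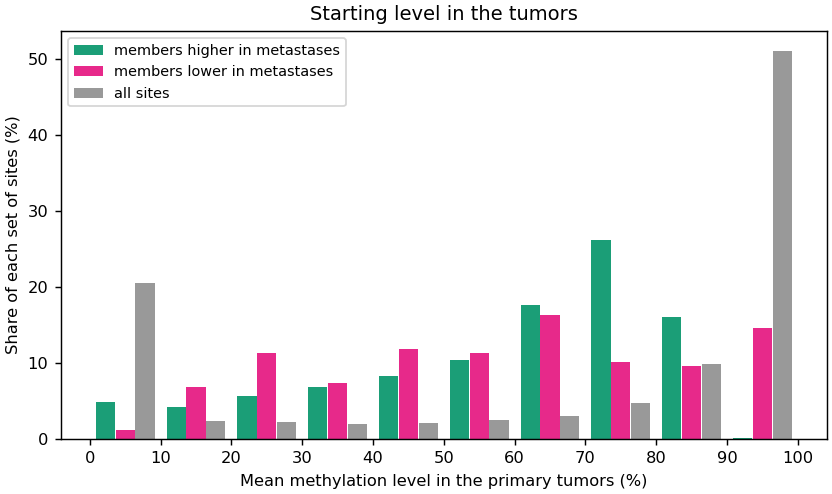
Share of higher members, lower members and all sites (vertical axis, percent of each set) in each 10-point class of the mean level in the primary tumors (horizontal axis, percent). The bars of higher members peak from 70% to 80%, at 26.2% of them, whereas 51.04% of all sites lie at 90% or more.

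Members lay near one another along the chromosomes. Another member lay within 500 bp of 871 of them (50.5%), whereas 12.9% of all sites had another site within that distance that was a member. The share over all sites is not matched to the members for starting level. Of the 571 neighboring pairs of members at that distance, 560 (98.1%) had the same direction. Because 89.7% of members were higher, most pairs would share a direction whatever their spacing. When deposited sites at most 500 bp apart were joined into regions, members fell into 840 of 3316 regions. Of these, 471 regions held a single member and 181 held at least 3, with 148 of the 181 all higher, 5 all lower and 28 holding both directions. Neighboring sites can be read on the same molecules, so they are not independent observations. Over longer distances, the 5 stretches of 100 kb with the most members held 201 of them (11.6%) but 2.29% of all sites. By chromosome, members made up 5.08% of the 394 sites on chromosome 18, 2.15% on chromosome 4 and 1.77% on chromosome 2, and 0.861% to 1.41% on each of the others. A single stretch of 100 kb held 18 of the 20 members on chromosome 18, and another held 59 of the 265 on chromosome 2.

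The largest group of members lay on chromosome 5, where a stretch from 125500001 to 125600000 held 75 of them among 1257 sites, 74 higher and 1 lower. Within it, 40 higher members lay between 125512722 and 125537941, in a region of 446 sites. Their mean level was 71.5%, 69.7% and 70.0% in the MFP metastases, 71.2%, 72.3% and 72.0% in the TVI metastases, and 56.2% and 52.7% in the tumors. By the rule all 6 metastases lie above both tumors. The 6 metastasis values lay close together, but the rule limits the gap between the groups, and averaging over 40 sites narrows the spread. The differences were 16.0 points for MFP and 17.4 points for TVI metastases. The other 406 sites of the region, interspersed with these, differed by 1.17 and 2.08 points. A second region of this stretch, with 13 members between 125550773 and 125560414, was less even. Its levels were 82.0%, 80.3% and 79.2% in the MFP metastases, 86.5%, 86.1% and 87.4% in the TVI metastases, and 68.4% and 66.8% in the tumors. Here every TVI metastasis lay above every MFP metastasis, and the other 157 sites differed by 3.43 points for MFP and 11.1 points for TVI metastases. No placed gene covered either region, and none is named for them.

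Chromosome 2 held the second group, 59 higher members among the 400 sites from 173000001 to 173100000 (14.8%). Its 2 largest regions differed in level, and a smaller one, from 173079643 to 173080559, held 5 members of 13 sites. From 173091064 to 173098972, 26 members started low: their mean level was 23.1%, 26.6% and 26.03% in the MFP metastases, 27.7%, 25.2% and 28.2% in the TVI metastases, and 7.91% and 8.45% in the tumors. The 196 other sites of that region were nearly unmethylated throughout, with means of 4.82%, 6.42% and 2.78% in the same groups. A few kilobases before it, from 173082053 to 173086729, 15 members had a mean level of 69.0%, 67.6% and 69.0% in the MFP metastases, 71.5%, 71.7% and 71.6% in the TVI metastases, and 50.3% and 49.5% in the tumors. In the region from 173082053 the other 55 sites moved too, by 6.66 points for MFP and 10.8 points for TVI metastases. No gene start was placed there.

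The region with the most lower members lay on chromosome 8, where all 15 members between 123639942 and 123641008 were lower in metastases. Their mean level was 55.2%, 50.8% and 53.5% in the MFP metastases, 47.5%, 48.4% and 45.7% in the TVI metastases, and 64.8% and 63.0% in the tumors. The metastasis groups did not overlap each other, and by the rule neither overlaps the tumors. The differences were -10.7 points for MFP and -16.7 points for TVI metastases. The other 98 sites of the region differed by -2.21 and -5.08 points.

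Compact groups were found on chromosomes 16 and 18. On chromosome 16, 14 higher members lay within 1365 bases, from 30059476 to 30060841, with mean levels of 46.3%, 44.5% and 48.6% in the MFP metastases, 48.8%, 48.0% and 48.6% in the TVI metastases, and 28.6% and 24.4% in the tumors. These differences, 19.99 and 22.03 points, were the largest among the 8 regions with the most members, and the groups of metastases overlapped. On chromosome 18, 14 higher members from 80830381 to 80833065 had 91.2%, 90.1% and 88.6% in the MFP metastases, 91.3%, 92.1% and 93.5% in the TVI metastases, and 73.1% and 77.1% in the tumors. Their level in metastases was close to that of the other 42 sites of the region, which had means of 91.5% in MFP metastases, 93.0% in TVI metastases and 90.3% in tumors. In the tumors the members had a mean of 75.1%, and the rule requires such a lower tumor level of higher members.

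Single sites with the largest changes were ranked by the smaller of their 2 differences. First among higher sites was position 120100423 on chromosome 8, in the span of Plcg2, which encodes a phospholipase C that acts downstream of immune receptors. Its level was 87.5%, 91.2% and 76.7% in the MFP metastases, 81.1%, 96.2% and 87.2% in the TVI metastases, and 39.1% and 52.4% in the tumors. The differences were 39.4 and 42.5 points. The site was ranked on these values, so their size is a description. The next, 173094583 in the low region of chromosome 2, had 46.1%, 50% and 58.8% in the MFP metastases, 63.8%, 53.8% and 64.2% in the TVI metastases, and 14.0% and 15.3% in the tumors. On chromosome 15, sites 77636860 and 77635514 differed by 32.8 and 36.5 points for MFP and by 34.0 and 30.03 points for TVI metastases. Positions 141073204 and 141073213 on chromosome 5, close neighbors, had tumor means of 53.4% and 57.2%, and the lowest metastasis at either had 82.8%. The other 4 of the 10 highest, 59125791 on chromosome 11, 125585457 on chromosome 5, 91138039 on chromosome 6 and 109155975 on chromosome 8, had smaller differences of 29.0 to 29.3 points.

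Among lower sites, position 135726703 on chromosome 5 had the largest differences, -31.4 and -40.3 points. Its level was 55.6%, 25.9% and 30.2% in the MFP metastases, 29.6%, 27.6% and 27.9% in the TVI metastases, and 74.1% and 63.3% in the tumors. One MFP metastasis therefore lay much nearer to the tumors than the other 5. The second lay 201 bases after the start of Cyba, which encodes p22phox, a membrane subunit of the NADPH oxidase. There the level was 3.85%, 22.2% and 13.5% in the MFP metastases, 9.76%, 9.09% and 4.08% in the TVI metastases, and 44.4% and 30% in the tumors. Of the other 8 named lower sites, 3 lay close together in the span of Nfatc2 and 1 lay 1278 bases before the start of Csnk1g2, which encodes a casein kinase 1 isoform. The 4 others, on chromosomes 2, 11 and 19, fell in no placed gene. Leaving out 1 sample cannot turn the direction of any of the 20 named sites, because the rule fixes it. The size of the difference moved by over 1.5 times at 3 lower sites. The smaller difference at 92229142 on chromosome 2 was -26.1 points without tumor 1 and -7.14 points without tumor 2, in place of -16.6. That at 80084248 on chromosome 10 was -9.76 points without tumor 1, in place of -16.4, and that at 94931107 on chromosome 11 was -8.90 points without TVI metastasis 2, in place of -16.0.

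**Figure D3:**
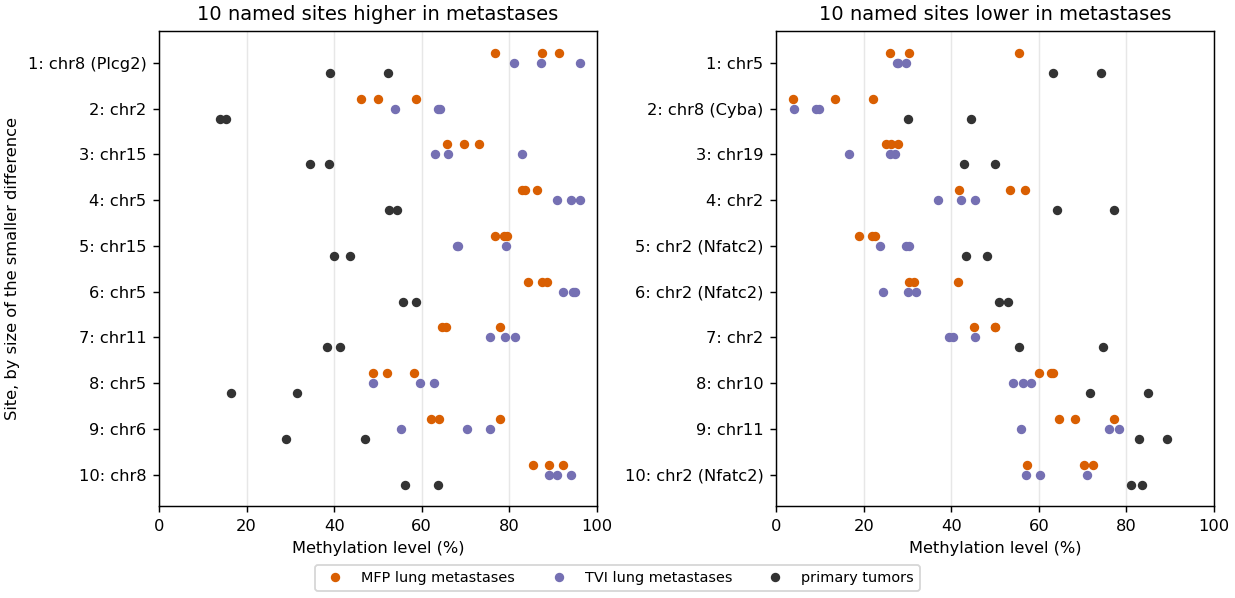
Methylation level (horizontal axis, percent) of each sample at the 10 named higher sites and the 10 named lower sites (rows, ranked by the smaller of the 2 differences). Each point is 1 sample, and by the rule all 6 metastases lie on 1 side of both tumors in every row, while the 2 metastasis groups overlap in most rows.

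In the windows from 250 bases before to 50 after a placed start, 18 of 3677 sites were members (0.490%), 11 higher and 7 lower, against 1.27% of all sites. Most window sites, 82.3%, had a tumor level under 20%. Before the start, the share of members was 1.16% beyond 250 and up to 2000 bases and 1.44% from there up to 10000 bases, where the median tumor levels were 42.2% and 92.2%. After it, the share was 0.588% from 50 to 250 bases, 0.718% beyond that up to 2000 bases and 1.33% from there up to 10000 bases, where the median tumor levels were 1.70%, 10.1% and 93.1%. The whole spans of placed genes, taken from 250 bases before the start to the RefSeq end and at most 150 kb from the start, held 317 members, 18.4% of them, and 23.6% of all sites. Of the placed genes, 112 held a member, 20 held at least 5, 24 held a lower member and 15 held members of both directions. Because 302 genes could be placed, members elsewhere may lie in genes not named here.

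Limk2 encodes LIM kinase 2, which phosphorylates cofilin and so regulates actin filaments. It held 13 members of 159 sites, and their direction differed by position. All 4 members before the start were lower, at 157, 166, 180 and 190 bases from it, within the window shown above. Their mean level was 24.8%, 31.3% and 30.2% in the MFP metastases, 29.6%, 17.7% and 30.7% in the TVI metastases, and 44.0% and 41.6% in the tumors. That no metastasis reached either tumor follows from the rule. All 9 members after the start, from 721 to 4895 bases, were higher. They had 89.0%, 87.3% and 88.9% in the MFP metastases, 89.2%, 90.3% and 92.1% in the TVI metastases, and 72.7% and 71.3% in the tumors. The other 146 sites of the gene differed by 0.919 points for MFP and 1.38 points for TVI metastases.

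**Figure D4:**
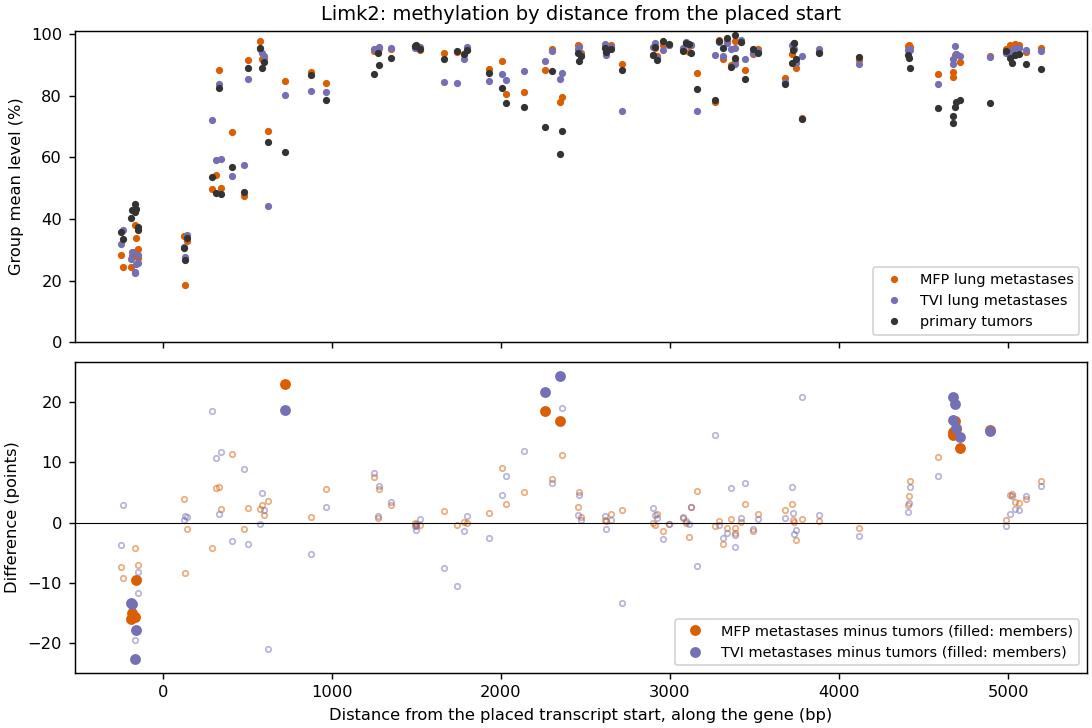
Group mean levels (upper panel, percent) and differences from the tumors (lower panel, percentage points) at the measured sites of Limk2 up to 5200 bases after its start (horizontal axis, distance along the gene in base pairs). Filled points in the lower panel are members: the 4 before the start lie below 0 and the 9 after it lie above 0 in both metastasis groups.

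The genes below are the placed genes with at least 5 members, and a gene with more measured sites can hold more of them. Members made up 1.27% of all sites, and their share in these genes ran from 1.14% in Pip5k1c to 8.18% in Limk2. Nfatc2, which encodes a calcium-regulated transcription factor of the NFAT family, held 20 members of 932 sites (2.15%), the most of any placed gene. Its 13 higher members had mean levels of 85.8%, 85.4% and 86.0% in the MFP metastases, 86.8%, 87.3% and 87.0% in the TVI metastases, and 74.5% and 73.9% in the tumors. Its 7 lower members had 47.8%, 43.4% and 45.0% in the MFP metastases, 42.8%, 44.0% and 43.5% in the TVI metastases, and 57.4% and 62.7% in the tumors. By the rule, both sets separate the tumors from all metastases. The farthest member lay 70631 bases after the start if the offset at the start holds along the gene. The single Nfatc2 member of its window, 174 bases before the start, was higher by 11.2 points for MFP and 14.5 points for TVI metastases.

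Bcar1 encodes the adaptor p130Cas, a scaffold of focal adhesions. Its 19 members of 409 sites (4.65%) were all higher, though 4 sites of the gene met the rule after quantile normalization. The 19 members had 71.9%, 72.5% and 75.3% in the MFP metastases, 73.1%, 72.9% and 72.7% in the TVI metastases, and 60.6% and 58.9% in the tumors. The differences in the 2 groups, 13.5 and 13.1 points, were nearly the same. Part of its span overlaps the annotated transcript Gm51589, and the member 11 bases after the Gm51589 start was higher by 12.2 and 18.7 points. In Plcg2, 16 members of 1033 sites (1.55%, near the share over all sites) were all higher, with 84.6%, 85.6% and 83.4% in the MFP metastases, 85.7%, 89.0% and 86.9% in the TVI metastases, and 68.1% and 69.1% in the tumors. The 1017 other Plcg2 sites differed by 0.437 and 1.51 points. Col18a1, the gene of collagen XVIII of basement membranes, held 13 higher members and 1 lower member among 688 sites (2.03%), and the higher ones differed by 11.8 and 14.8 points.

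The Notch1 gene, which encodes a receptor of cell-to-cell signaling, had 7 higher members and 1 lower member among 562 sites (1.42%, near the share over all sites). The higher ones had mean levels of 71.5%, 70.7% and 67.4% in the MFP metastases, 71.4%, 70.4% and 74.98% in the TVI metastases, and 51.6% and 58.6% in the tumors. Rara, the gene of retinoic acid receptor alpha, had 8 higher members of 332 sites (2.41%), at 67.1%, 69.2% and 66.7% in the MFP metastases, 67.3%, 68.3% and 68.1% in the TVI metastases, and 52.7% and 55.0% in the tumors. The overlap with Gm46294 leaves their assignment to Rara uncertain. Pdgfa, which encodes a platelet-derived growth factor chain, had 5 higher members with differences of 13.1 and 15.3 points, and Efna3, which encodes an ephrin ligand, had 6 with 10.9 and 14.3 points. Adcy7, an adenylyl cyclase gene, held 11 higher members of 348 sites (3.16%), at 57.7%, 56.9% and 57.7% in the MFP metastases, 64.0%, 60.9% and 63.9% in the TVI metastases, and 45.0% and 43.6% in the tumors, so that the TVI metastases were above the MFP metastases. Map3k14, the gene of the kinase NIK of noncanonical NF-kappaB signaling, showed no such gap, with differences of 14.7 and 14.8 points over 7 higher members of 528 sites (1.33%, near the share over all sites). Overlaps with Gm34823 and Gm15998 leave the assignment of members to Map3k14 and Efna3 uncertain as well.

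Jup, which encodes plakoglobin of cell junctions, had 7 higher members of 385 sites (1.82%) with larger mean differences than the higher members of any other of the 20 genes. Their mean level was 73.1%, 70.8% and 75.9% in the MFP metastases, 71.5%, 79.1% and 74.4% in the TVI metastases, and 54.1% and 55.0% in the tumors. Pak4, a kinase gene of the Cdc42 pathway, had 5 higher members with differences of 13.7 and 18.7 points and 2 lower members with -11.6 and -14.6 points. Ak1, which encodes a cytosolic adenylate kinase, had 7 higher members at 60.1%, 59.3% and 63.2% in the MFP metastases, 61.6%, 63.6% and 65.1% in the TVI metastases, and 45.8% and 42.4% in the tumors. Its member in the window shown above lay 132 bases before the start and had 57.1%, 56.7% and 64.4% in the MFP metastases, 57.1%, 59.3% and 61.6% in the TVI metastases, and 45.5% and 31.0% in the tumors. In Smarcd2, which encodes a subunit of SWI/SNF chromatin remodelers, 2 window members lay 24 and 44 bases before the start and 3 more followed after it. The member 24 bases before had 55.6%, 49.2% and 51.2% in the MFP metastases, 62.1%, 53.2% and 54.1% in the TVI metastases, and 38.3% and 46.2% in the tumors. The remaining genes with at least 5 members were Cbarp, Mettl27, 1700003D09Rik, Cdc42ep4 and Pip5k1c, of which the last 2 also held lower members and had shares of 1.28% and 1.14%. Cbarp overlaps Atp5d, and 1700003D09Rik overlaps Ppp1r1b.

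Other windows held a single member each. Of the 7 lower window members, 4 lay in Limk2, and the others lay before the starts of Cdc42ep4, Gm10863 and Plcb3, which encodes a phospholipase C activated through G proteins. The Plcb3 member, 143 bases before the start, had 4.35%, 4.08% and 4.55% in the MFP metastases, 0%, 6.45% and 5.26% in the TVI metastases, and 12.8% and 14.5% in the tumors. Cldn5, which encodes a claudin of tight junctions, had a higher member 155 bases before its start, at 94.1%, 98.0% and 100% in the MFP metastases, 95.8%, 94.9% and 96.9% in the TVI metastases, and 92.5% and 81.1% in the tumors. There tumor 1 lay close below the lowest metastasis, and tumor 2 lay well below all 6.

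Counts of members per gene rested on the scaling and the samples used. After quantile normalization, 4 members were found in Bcar1, 13 in Nfatc2, 9 in Col18a1, 4 in Rara, 4 in Pak4 and 2 in Smarcd2, in place of 19, 20, 14, 8, 7 and 5, while Limk2 again had 13 and Map3k14 again had 7. Applied without tumor 1, which leaves fewer values to clear, the rule found 34 members in Nfatc2, 28 in Plcg2, 20 in Rara, 19 in Notch1, 17 in Ak1, 16 in Pdgfa and 13 in Map3k14. Without tumor 2 it found 37 in Nfatc2, 16 in Rara, 15 in Notch1, 13 in Map3k14 and 11 in Efna3. Jup held 12 members without MFP metastasis 1 and 11 without MFP metastasis 2, Map3k14 held 11 without MFP metastasis 1, and Ak1 held 4 without TVI metastasis 1. Limk2 held 12 to 19 members whichever sample was left out.

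Sites next to members that were not members themselves differed in the same direction, and by less farther away, though not evenly. Within 1 to 10 bases of a higher member, 346 such sites had mean differences of 5.05 points for MFP and 8.29 points for TVI metastases, and 76.0% were higher in both groups, against 42.4% of all sites. Beyond 50 and up to 100 bases the differences were 2.61 and 4.90 points, and beyond 500 and up to 1000 bases they were 0.755 and 2.61 points, near the means over all sites of 0.731 and 1.85 points. Within 1 to 10 bases of a lower member, 68 sites differed by -4.43 points for MFP and -9.58 points for TVI metastases, and 64.7% were lower in both, against 24.3% of all sites. The TVI difference was -4.04 points beyond 25 and up to 50 bases and -4.40 points beyond 50 and up to 100 bases. Beyond 100 and up to 250 bases the MFP difference beside lower members was 0.1003 points while the TVI difference was -2.78 points. The neighbors were measured in the same samples as the members, and near ones on partly the same reads, so these means were not tested.

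**Figure D5:**
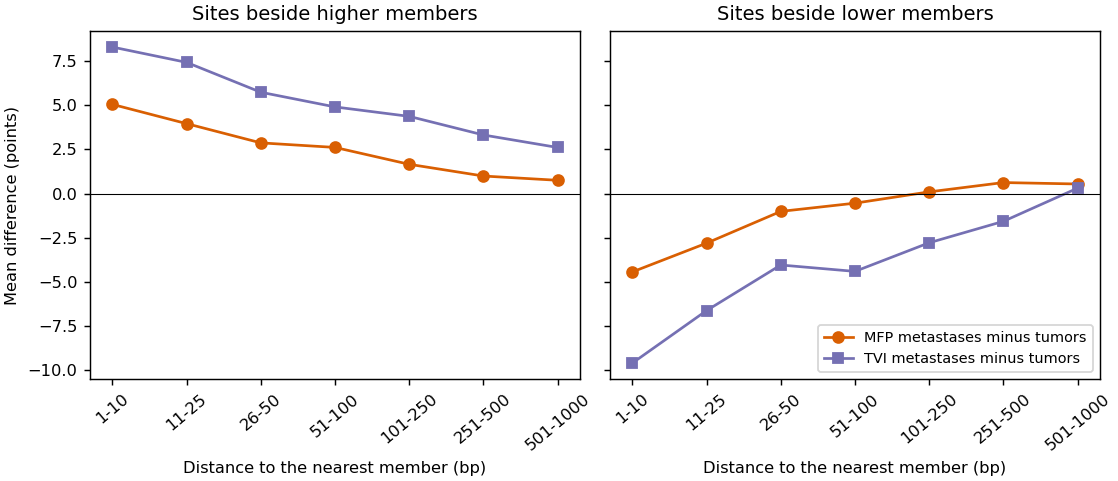
Mean difference from the tumors (vertical axis, percentage points) of sites that are not members, by distance to the nearest higher member (left) or lower member (right) in classes of base pairs (horizontal axis). Beside higher members both lines fall with distance. Beside lower members the MFP line crosses 0 beyond 100 bp and the TVI line lies below 0 up to 500 bp.

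Part of the samples could serve to read sites chosen in others. When sites were chosen by the group differences of the 3 samples numbered 1 (at least 8 points in both groups, less than 10 points apart) and read in the 3 samples numbered 2, 62.5% of the 3388 sites chosen as higher were again higher in both metastases, against 37.7% of all sites. Their median differences in the second samples were 3.56 points for MFP and 9.06 points for TVI metastases. Differences of at least 8 points in both recurred in 24.5%, against 3.96% of all sites. The shares over all sites here are not matched to the chosen sites for starting level. Of all sites, 51.04% had a tumor level of 90% or more, which leaves little room to gain 8 points. Of sites chosen as lower, 36.5% of 988 were again lower in both, against 24.3% of all sites, and their median differences were 0.921 points for MFP and -5.79 points for TVI metastases. With the numbers exchanged, 58.4% of 3498 higher and 43.0% of 626 lower sites kept their direction, against 36.3% and 24.7% of all sites. No test was made, since neighboring sites are not independent and each choice rested on a single tumor.

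A moderated linear model (limma, two-sided, Benjamini-Hochberg adjusted over 135914 sites with any variation) was fitted with 1 mean per group, and a site was called at an adjusted p under 0.05. For all metastases against tumors it called 980 of the 1548 higher members and 79 of the 178 lower members, where 5.12% of tested sites were called higher and 1.62% lower. For TVI metastases against tumors, 1143 higher and 112 lower members were called, against 11.4% and 5.24% of tested sites. For MFP metastases against tumors, 35 higher members and 1 lower member were called, against 0.0427% and 0.00368% of tested sites. The rule used these contrasts, so nothing is read from the members' shares. For TVI against MFP metastases, whose gap the rule limits, 41 higher and 6 lower members were called, against 10.4% of tested sites called higher and 6.53% called lower in TVI. Without tumor 1, tumor 2 or TVI metastasis 3, the members called for all metastases numbered 324, 293 and 705 in place of 1059. Of the named sites, 94931107 on chromosome 11 and 168345398 on chromosome 2, both lower, were not called for all metastases (limma adjusted p = 0.142 and 0.0646). For TVI metastases against tumors, 94931107 alone of the named sites was not called (limma adjusted p = 0.139). Named sites called for MFP metastases against tumors were 173094583 and 168345235 on chromosome 2 and 77635514 on chromosome 15. Also called were 141073204 and 141073213 on chromosome 5 and 109155975 on chromosome 8. The other named sites were not, among them the first higher and first lower site (limma adjusted p = 0.0557 and 0.191). For TVI metastases against tumors, the members called numbered 817 without tumor 1 and 755 without tumor 2, in place of 1255. For MFP metastases, 0 to 10 members were called without any 1 of the 8 samples, in place of 36, while 10620 to 11802 of all sites had an unadjusted p under 0.05 in those fits. For TVI against MFP metastases, the members called numbered 13, 24, 17 and 10 without MFP metastasis 2, MFP metastasis 3, TVI metastasis 2 and TVI metastasis 3, in place of 47.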

How the data were processed

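Methylation was measured by bisulfite sequencing in 3 MFP and 3 TVI lung metastases and 2 MFP primary tumors. The labels' protocols give the ZR-Duet DNA/RNA miniprep for extraction and an EZ-DNA Methylation Gold kit for conversion. Bismark, Trimmomatic and mm10 appear in the submitters' processing notes, without versions. The authors deposited beta values, each being the methylated fraction of the calls at a site in 1 sample, from 0 to 1, for 136069 sites, per the file headers. It holds no coverage, so depth is unknown and precision was judged from the spread between samples; how sites were selected is not given in the sources used here.

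Members were found with Python 3.11.15 and pandas 2.3.3, and differences are in percentage points. limma 3.58.1 in R 4.3.3 was fitted to fractions with a variance trend over all 8 samples. The procedure was tested on simulated data. The members and all lists and rules were chosen with earlier results of these data known. Named sites were the 10 higher and 10 lower members with the largest smaller-of-2 difference, and named regions the 8 with the most members. Genes described are the 20 placed genes with at least 5 members, those of named sites, and members in windows; Cyba and Csnk1g2 came from named sites.

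The deposited positions are not on GRCm38, although the notes name mm10. A gene of another build was to be left unnamed under the written plan, so placing starts by CpG spacing departs from it and was added after the data were seen. With at least 10 sites per window, 200 RefSeq windows matched on their own chromosome and 1 when sought on another. Of 671 windows with at least 4 sites at an accepted offset, 343 matched at every site, and 0 of 670 did so after a shift of 37 bases. Each window was tried at all accepted offsets of its chromosome, and the best match was kept. The offset from GRCm38 changes along chromosomes, so gene spans, which use RefSeq lengths, rest on the offset at the start holding along the gene. Alternatives are described in the closing section.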

Additional observations from a re-analysis of the deposited data

Results flagged for a closer look

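At 47 of the 1726 members the limma test of TVI against MFP metastases passed the threshold (adjusted p from 0.00401 to 0.0495). The rule used the same group means and capped their gap at 10 points, so these p-values describe the members and support no difference at them. Of these, 41 were higher and 6 were lower members, where 10.4% of tested sites were called higher in TVI and 6.53% lower. At each of the 47, TVI metastases lay farther from the tumors, by 4.74 to 9.998 points, an upper bound that the rule sets. The lowest adjusted p belonged to position 173084409 on chromosome 2, where TVI exceeded MFP metastases by 7.86 points. A further example was 4283313 on chromosome 19, 175 bases before the start of Ankrd13d, whose level was 24.5%, 20% and 22.2% in TVI metastases, 17.8%, 10.3% and 13.3% in MFP metastases, and 3.704% and 5.88% in tumors.

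Among the named sites, position 141073204 on chromosome 5 had a gap of 9.51 points between the metastasis groups (SE 2.89, limma adjusted p = 0.0421, TVI above MFP). It was chosen on the same values, so this p is a description too. Its level was 90.98%, 94.1% and 96.2% in TVI metastases, 83.6%, 86.3% and 82.8% in MFP metastases, and 52.5% and 54.3% in tumors.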

How the results depend on the processing

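The number of members followed the rule's settings: 3794, 1040 and 311 with a minimum of 5, 10 and 15 points, 1122 with metastasis means under 5 points apart and 2798 with no such limit. It ranged from 1703 to 3755 when 1 sample was left out, and was 1462 after shifting samples to a common median, with 81.1% higher. Changing the settings or leaving out 1 sample cannot turn a member's direction, because the rule fixes it. After the shift to a common median no member met the rule in the other direction. Members called by limma for all metastases against tumors (1059) numbered 432 on the logit scale, 586 after quantile normalization and 293 to 968 without 1 sample. For TVI metastases against tumors (1255) they numbered 768 after quantile normalization and 755 to 1230 without 1 sample. For MFP metastases against tumors (36) they numbered 0 on the logit scale, where 10490 of all sites had an unadjusted p under 0.05, 13 after quantile normalization, 135 with mean fractions from 0.05 to 0.95, and 0 to 10 without 1 sample. For TVI against MFP metastases (47) they numbered 91 with that filter and 10 to 55 without 1 sample. The cause was not tested.

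With the replicate number as a block, members called were 646 for all metastases and 0 for MFP metastases (10913 sites unadjusted), 1051 for TVI metastases and 32 for TVI against MFP metastases. Deviations of same-numbered samples correlated from -0.0037 to 0.0172 over all sites. This cannot exclude pairing, since the deviations of the 2 tumors mirror each other and depth is unknown. No pairing was assumed in the main fit. Members with another within 100 bp made up 33.4%, and within 1000 bp 58.3%. The median number of other sites around a member was 7 within 250 bp, 3 within 100 bp and 25 within 1000 bp. The exchanged held-out reading gave 58.4% and 43.0%. Of 200 member counts in named genes under alternatives, 35 were beyond 1.5 times. Of 200 values of named sites under alternatives, 4 moved beyond the spread and 0 changed sign. The sign is fixed by the rule for the values with 1 sample left out. Because depth is unknown, the counting error at a single site cannot be given.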
